A study of Mus musculus with 2 samples.

Results

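The 38 transcripts described here are genes of the cell division cycle, measured in dorsal skin of newborn mice. They were taken by gene name from the probe annotation of a mouse expression array that carried 31035 gene names in all, and each of the 38 names was found, on 51 of its 39417 probes. The genes fall into 22 that act in G2 and mitosis and 16 that act around entry into S phase and during DNA replication. The Sdr9c7 knockout group (KO; genotype Sdr9c7-/-) was represented by 1 array and the wild type group (WT) by 1 array. Both groups were on the C57BL/6J background, were taken at postnatal day 0 and carried no other allele or treatment named in the labels. Equal amounts of RNA from 5 animals were pooled for each array, and 200 ng of total RNA was labelled with the dye Cy3. The sample labels name dorsal skin, whereas the series text speaks of epidermis. Fibroblast and muscle transcripts were well above background on both arrays, so the material is treated as whole skin.

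The cell cycle is driven by cyclins and the kinases they activate. During G1 the MCM helicase is loaded onto replication origins, cyclin E and its kinase start S phase, and the genome is copied once. Cyclin A and cyclin B with Cdk1 then carry the cell into mitosis, where Aurora and Polo kinases build the spindle, the spindle checkpoint holds the cell until all chromosomes are attached, and the anaphase-promoting complex ends mitosis. In newborn skin, dividing cells lie mainly in the basal layer of the epidermis and in the growing hair follicles. Genes of replication are known to be controlled largely by E2F factors, and genes of G2 and mitosis by the DREAM and MuvB complexes, which act through CHR elements, and by NF-Y, which binds CCAAT boxes.

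Because the design held 1 array per genotype, no difference below has a replicate check, no test was possible and no p-value is given. The array with its labelling and hybridisation cannot be told apart from genotype. Values are relative signals, that is, the background-corrected intensity divided by the 75th percentile of all probes on that array, so that 1 equals that percentile. Differences are log2 of KO over WT. A gene counts as measured when at least 1 of its probes passed on each array, that is, stood well above background without being saturated, and its value is the log2 mean over such probes. Well above background means that the signal exceeded a multiple of the background SD set by the scanner software. Technical spread was judged in 320 probes printed at 8 or more positions, whose spots differed by a median SD of 0.06 (log2 difference; called the spot error below), and in 5122 genes with several measured probes, whose probes had a pooled SD of 0.23 (the probe spread). Probes well above background made up 76.8% of the KO array and 74.96% of the WT array, and 0 spots were saturated. Sdr9c7, the deleted dehydrogenase, had a relative signal of 0.0479 on the KO array and 0.324 on the WT array, 6.78-fold lower in KO. Signals of different probes depend on probe sequence, so no level of one gene is set against that of another.

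Promoter sequences of 31 of the 38 genes were found in the RefSeq promoter table (build GRCm38.p6, 250 bases before to 50 bases after each start site). Not matched were Ccna2, Aurkb, Kif20a, Tpx2, Mcm4, Ccne2 and Gins2. The CCAAT box was searched as CCAAT, the CHR element as TTTGAA and the E2F element as TTTCCCGC, TTTGGCGC, TTTCGCGC or TTTGCCGC, on both strands. The 6 stretches below run from 150 bases before the start site to 30 bases after it, with matches in capitals. Aurka, Cenpe and Plk1 are shown because their differences were the highest of the G2 and mitosis genes, Cdk1 because its promoter held all 3 motifs, Cdc6 because its difference was the highest of the S phase genes, and Mcm6 for its several E2F matches.
Aurka, chr2:172370541-172370720, minus strand: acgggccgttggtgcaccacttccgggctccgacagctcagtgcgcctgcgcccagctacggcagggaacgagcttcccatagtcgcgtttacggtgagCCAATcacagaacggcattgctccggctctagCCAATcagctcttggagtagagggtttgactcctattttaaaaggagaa
Cenpe, chr3:135212413-135212592, plus strand: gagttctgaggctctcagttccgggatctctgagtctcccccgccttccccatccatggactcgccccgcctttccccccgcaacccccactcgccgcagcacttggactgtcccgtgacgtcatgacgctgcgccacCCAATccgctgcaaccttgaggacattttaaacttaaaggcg
Plk1, chr7:122159285-122159464, plus strand: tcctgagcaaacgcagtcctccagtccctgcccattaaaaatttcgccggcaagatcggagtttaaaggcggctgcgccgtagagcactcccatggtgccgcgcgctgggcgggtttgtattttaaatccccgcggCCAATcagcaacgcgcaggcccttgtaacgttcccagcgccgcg
Cdk1, chr10:69352883-69353062, minus strand: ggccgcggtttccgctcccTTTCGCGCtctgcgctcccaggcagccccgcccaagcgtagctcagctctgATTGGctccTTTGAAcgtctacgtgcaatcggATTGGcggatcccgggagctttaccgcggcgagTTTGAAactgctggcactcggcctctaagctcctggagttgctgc
Cdc6, chr11:98908001-98908180, plus strand: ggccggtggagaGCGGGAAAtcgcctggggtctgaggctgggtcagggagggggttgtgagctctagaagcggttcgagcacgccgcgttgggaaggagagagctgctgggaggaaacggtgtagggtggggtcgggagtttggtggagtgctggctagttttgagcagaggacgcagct
Mcm6, chr1:128359676-128359855, minus strand: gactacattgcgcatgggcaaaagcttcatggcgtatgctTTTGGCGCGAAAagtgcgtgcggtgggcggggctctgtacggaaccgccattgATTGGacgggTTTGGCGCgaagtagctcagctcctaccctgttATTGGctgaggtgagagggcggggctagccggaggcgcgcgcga

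The phases differed in these letters. Members were counted by gene, with a match in any promoter of the gene, whereas the background is a share of promoters. A CHR match was present in 13 of 18 matched G2 and mitosis genes (72.2%) and in 1 of 13 matched S phase genes (Mcm2). It was present in 17.9% of all 32851 promoters in the table, which belong to 27025 genes. An E2F match was present in 1 of 18 G2 and mitosis genes (Cdk1) and in 2.26% of all promoters. Among S phase genes it was present in 6 of 13 (46.2%), namely Mcm3, Mcm5, Mcm6, Mcm7, Cdc6 and Cdt1. A CCAAT box was present in 16 of 18 G2 and mitosis genes, in 8 of 13 S phase genes and in 37.4% of all promoters. In Aurka and Plk1 the CHR match began just past the 3′ end of the stretch shown. In the members' promoters 1 pair of matches of different motifs overlapped. A match is a description of the letters and says nothing of binding in this tissue.

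Transcripts of G2 and mitosis were slightly higher in KO skin. Of the 22 genes, 21 were measured, and 21 of 21 had a difference above 0, with a median of 0.21 and a range of 0.01 (Ccna2) to 0.55 (Aurka). Of all 22719 measured genes, 43.1% were above 0 and the median was −0.04. A difference of 0.32 or more, the smaller of the folds used here (25% above WT), was found in 7 of the 21, namely Aurka, Cenpe, Plk1, Kif23, Ccnb1, Bub1 and Ttk, against 8.42% of all measured genes, and none had a difference of −0.32 or less, against 15.7%. Median scaling replaces each array's 75th percentile by its median. With it, 13 rather than 8 of the members of both phases together were past 0.32. The share of all measured genes past 0.32 rose as well, from 8.42% to 10.7%. Of all genes past 0.32 in either direction, 34.8% were higher in KO, and 45.2% after quantile normalization. None of the 36 measured members reached 1.5-fold, which 2.36% of measured genes reached upward and 6.05% downward. Under median scaling Aurka and Cenpe did (0.60 each on the log2 scale), against 2.9% of all measured genes upward. Without the filter on dim probes 2 of 38 members reached 1.5-fold upward, against 6.14% of all genes in that setting. They were Aurkb and Ccne2, which were not well above background on the WT array. In 10 of the 21 the difference exceeded the probe spread. The share of all measured genes that did so was not counted, but their upper quartile was 0.12.

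**Figure D1:**
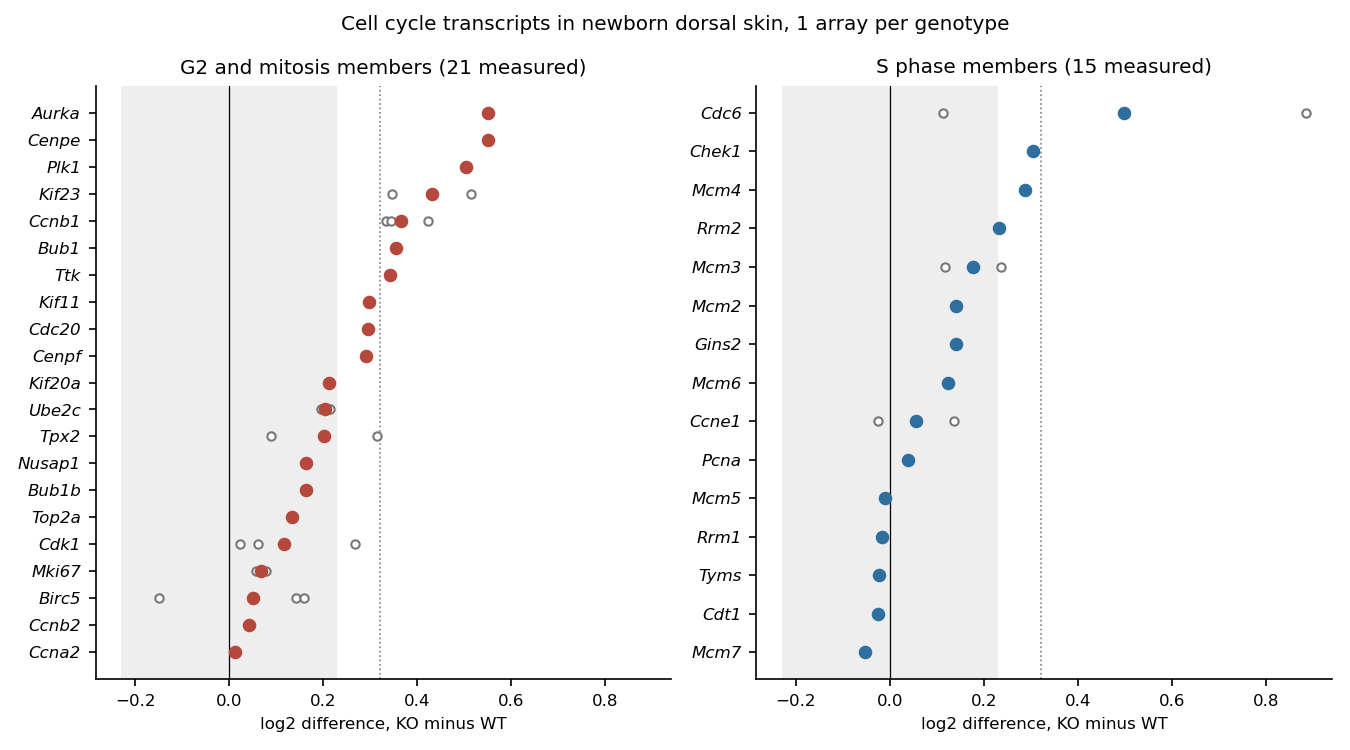
Log2 difference (KO minus WT, horizontal axis) of each measured gene, with G2 and mitosis genes on the left and S phase genes on the right. Filled points are gene values, open points the probes of genes with several, the grey zone the probe spread (0.23 either side of 0) and the dotted line a difference of 0.32. The G2 and mitosis genes all lie right of 0, from 0.01 to 0.55, and 5 of the 15 S phase genes lie just left of it.

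The mitotic and checkpoint kinases included Aurka, which with the kinesin Cenpe had the highest value. Aurka encodes Aurora A, which matures centrosomes and the spindle poles. Its relative signal was 3.003 in KO and 2.05 in WT, 1.46-fold higher in KO (0.55). Plk1, the Polo-like kinase that acts from mitotic entry to cytokinesis, had 6.51 in KO and 4.59 in WT, 1.42-fold higher (0.50). Both differences were more than double the probe spread, although each gene had 1 probe. Bub1, a kinase of the spindle checkpoint, had 0.757 in KO and 0.592 in WT (0.35). Ttk, the checkpoint kinase Mps1, had 0.0928 in KO and 0.0731 in WT (0.34), but gave 0.17 under the normexp background correction described below. Bub1b, which encodes the checkpoint protein BubR1, had 1.01 in KO and 0.903 in WT (0.16). The kinase group was thus spread from 0.16 to 0.55. Aurkb, the catalytic subunit of the chromosomal passenger complex, was well above background on the KO array only, with 0.00807 in KO and 0.00537 in WT. Because it did not pass on the WT array, no fold is given.

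The Bub1 probe was printed at 10 positions, which shows the spot error behind a difference of this size. Its relative signal had a lowest value of 0.724, a median of 0.758 and a highest value of 0.803 on the KO array, against 0.566, 0.589 and 0.647 on the WT array. The spots of the arrays did not overlap. The difference was 0.35 ± 0.04 (SD over 10 spots) and ran from 0.31 to 0.43. These spots share the labelled RNA, so the SD covers spot error and not the spread between animals.

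**Figure D2:**
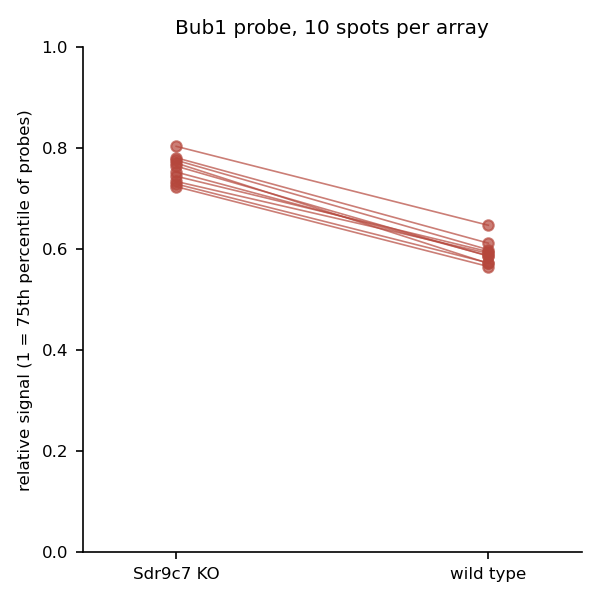
Relative signal (vertical axis, 1 equals the 75th percentile of probes) of the 10 spots of the Bub1 probe on the KO array (left) and the WT array (right), with lines joining spots at the same position. KO spots run from 0.724 to 0.803 and lie above all WT spots, which run from 0.566 to 0.647.

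Among kinetochore and motor proteins, Cenpe was highest. It encodes the kinesin CENP-E, which moves chromosomes to the spindle equator, and had 6.15 in KO and 4.20 in WT, 1.46-fold higher (0.55). Kif23, the kinesin of the central spindle needed for cytokinesis, had 0.248 in KO and 0.184 in WT (0.43), and its probes gave 0.35 and 0.52. Kif11, the kinesin Eg5 that pushes spindle poles apart, had 0.711 in KO and 0.578 in WT (0.30). Cenpf, a large protein of the outer kinetochore, had 0.0331 in KO and 0.0271 in WT (0.29), but gave 0.09 under normexp correction. Kif20a, a cytokinesis kinesin, had 2.93 in KO and 2.52 in WT (0.21). The 5 genes of this group lay between 0.21 and 0.55.

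Partners of the anaphase-promoting complex were intermediate. Cdc20, which activates the complex, had 8.24 in KO and 6.71 in WT (0.30). Ube2c, the ubiquitin-conjugating enzyme of the complex, had 2.69 in KO and 2.33 in WT (0.21), with 0.20 and 0.21 for its probes. Of the spindle assembly proteins, Tpx2, which activates Aurora A on the spindle, had 0.362 in KO and 0.314 in WT (0.20), and its probes gave 0.09 and 0.31. Nusap1, a microtubule-bundling protein, had 2.13 in KO and 1.90 in WT (0.16). Except for Cdc20, these differences were below the probe spread.

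The mitotic cyclins were uneven. Ccnb1, cyclin B1, had 0.669 in KO and 0.519 in WT, 1.29-fold higher (0.37), whereas Ccnb2, cyclin B2, had 6.66 in KO and 6.46 in WT (0.04) and Ccna2, cyclin A2, had 4.55 in KO and 4.51 in WT (0.01). The Ccna2 and Ccnb2 values were within the spot error of 0.06. The Ccnb1 probes gave 0.33, 0.34 and 0.42, but 2 of the 3 are placed by the files on chromosome 7 (mm9), whereas RefSeq puts the gene on chromosome 13. RefSeq lists a transcribed pseudogene, Ccnb1-ps, on chromosome 7, and which transcript these probes read was not tested. The probe placed on chromosome 13 had 4.03 in KO and 3.18 in WT (0.34).

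Cdk1, the mitotic kinase itself, had 0.103 in KO and 0.0950 in WT as the mean of 3 probes (0.12). Its brightest probe gave 0.27, with 1.70 in KO and 1.41 in WT, and the other probes gave 0.06 and 0.02. The bright probe and one dim probe, both of 60 bases, share 41 bases and are shifted by 19, yet the dim one had 0.0220 in KO and 0.0211 in WT. The ends in which they differ are shown because the gene's value turns on which probe is read, with capitals for the bases that the other probe lacks.
Cdk1 bright probe, first 30 bases, chr10:68801102-68801131 (mm9), minus strand: TTCTTAATTTCCTACGTATaacttaattaa
Cdk1 dim probe, last 30 bases, chr10:68801053-68801082 (mm9), minus strand: atgaatttaaaTATAATTCTGTATATGTGC

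The chromosome proteins, which include common proliferation markers, were nearly level. Mki67, which encodes the Ki-67 antigen coating mitotic chromosomes, had 14.98 in KO and 14.3 in WT (0.07), with 0.06 and 0.08 for its probes. Top2a, the topoisomerase that untangles sister chromatids, had 2.40 in KO and 2.19 in WT (0.13). Birc5, survivin of the chromosomal passenger complex, had 2.36 in KO and 2.28 in WT (0.05), and its probes spanned 0, from −0.15 to 0.16. The brightest probe, with 15.9 in KO and 14.3 in WT, gave 0.16 and another gave 0.14. Only the dimmest, with 0.697 in KO and 0.773 in WT, was below 0. None of these 3 genes exceeded the probe spread.

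**Figure D3:**
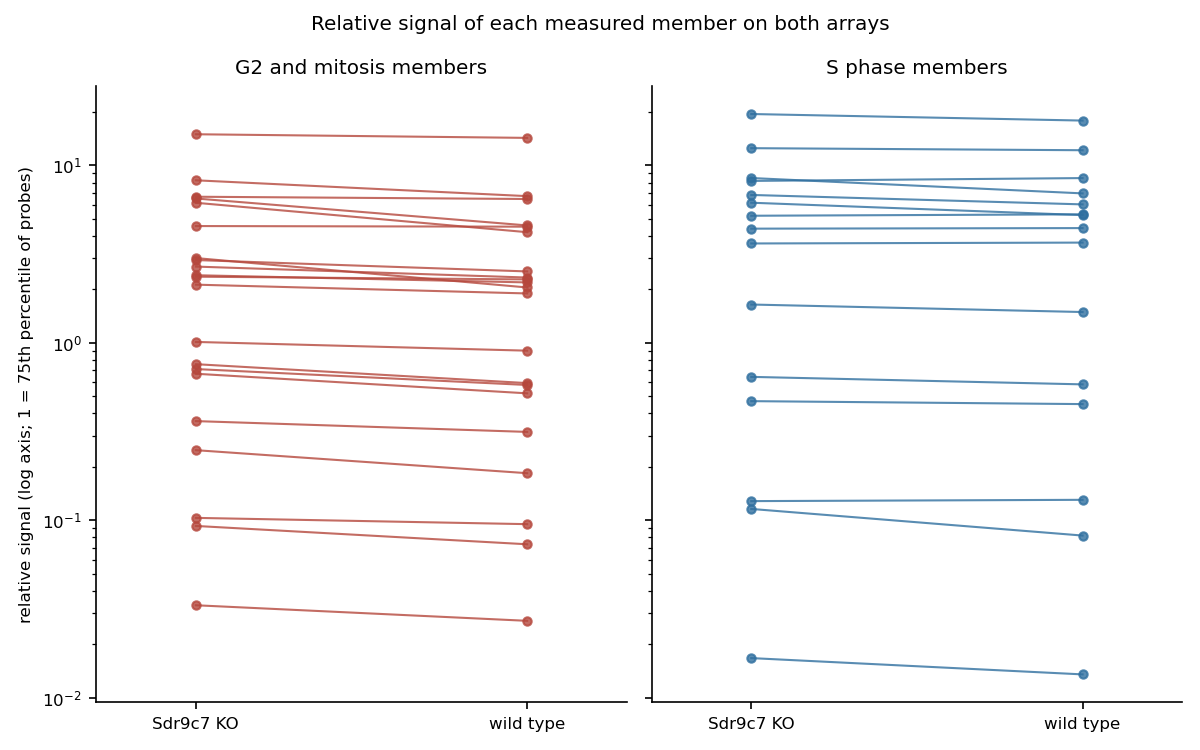
Relative signal of each measured gene on the KO array (left of each panel) and the WT array (right), on a log axis where 1 equals the 75th percentile of probes, for G2 and mitosis genes (left panel, 21 genes) and S phase genes (right panel, 15 genes). Lines join the arrays for each gene and slope gently, with no gene reaching 1.5-fold.

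Transcripts of S phase were higher in KO skin in part. Of the 16 genes, 15 were measured, 10 with a difference above 0 and 5 below, with a median of 0.12 and a range of −0.05 (Mcm7) to 0.50 (Cdc6). Above 0 were thus 66.7%, against 43.1% of all measured genes. Only Cdc6 was higher by 0.32 or more, a share of 6.67% and no more than the 8.42% of all measured genes, and none was lower by as much, against 15.7%. In 4 of the 15 the difference exceeded the probe spread, a share that was not counted over all measured genes (upper quartile 0.12). With normexp background correction, which models the background as noise under an exponential signal, the median was 0.055.

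The MCM subunits form the replicative helicase and were split. Mcm4 had 8.49 in KO and 6.95 in WT, 1.22-fold higher (0.29), and Mcm3 had 6.81 in KO and 6.03 in WT (0.18). Mcm2 had 1.64 in KO and 1.49 in WT (0.14), and Mcm6 had 19.5 in KO and 17.9 in WT (0.12). Mcm5 had 4.40 in KO and 4.43 in WT (−0.01), and Mcm7 had 8.17 in KO and 8.48 in WT (−0.05), both within spot error. Subunits of this single complex thus lay between −0.05 and 0.29.

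Mcm3 was read by overlapping probes that share 43 aligned positions and differ there at A31G, counted from the first base of the probe designed on the RefSeq transcript. That probe had 8.50 in KO and 7.83 in WT (0.12), and the probe designed on a cDNA clone had 5.46 in KO and 4.64 in WT (0.24). The same 30 bases of each are shown with the differing base in capitals. Both probes lay in rows of the slide where dim spots scattered, as did those of Ccna2 and Ccne2 and a spot of Bub1.
Mcm3 transcript probe, chr1:20793149-20793178 (mm9), minus strand: aagctttctttgcAattagactagtatgta
Mcm3 clone probe, chr1:20793149-20793178 (mm9), minus strand: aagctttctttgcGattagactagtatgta

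Among licensing and firing factors, Cdc6, which loads the helicase onto origins, had the highest S phase value, with 0.116 in KO and 0.0819 in WT (0.50). Its 2 probes disagreed. One had 0.0907 in KO and 0.0491 in WT (0.89), and the other 0.148 in KO and 0.137 in WT (0.11), so that the brighter probe alone gives 0.11. Cdt1, the other loading factor, had 5.20 in KO and 5.30 in WT (−0.03), and Gins2, a subunit of the GINS complex that activates the helicase, had 0.642 in KO and 0.583 in WT (0.14).

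The clamp and the nucleotide supply were close to level except for Rrm2. Pcna, the sliding clamp of DNA polymerases, had 12.5 in KO and 12.2 in WT (0.04). Rrm2, the regulatory subunit of ribonucleotide reductase, had 6.16 in KO and 5.25 in WT (0.23), whereas Rrm1, the catalytic subunit, had 3.63 in KO and 3.67 in WT (−0.02). Tyms, thymidylate synthase, had 0.128 in KO and 0.130 in WT (−0.02). The files place the only probes of Pcna, Rrm2 and Mcm7 on chromosomes 19, 19 and 16 (mm9), while RefSeq puts the genes on chromosomes 2, 12 and 5, and whether these 3 values read a copy elsewhere was not tested. RefSeq lists a pseudogene Pcna-ps2 on chromosome 19. With all 5 such probes left out, the S phase median was 0.13 over 12 genes and the G2 and mitosis median 0.21 over 21.

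Cyclin E and the checkpoint complete the S phase group. Ccne1, cyclin E1, had 0.469 in KO and 0.451 in WT (0.06). Its brighter probe, with 2.21 in KO and 2.01 in WT, gave 0.14, and its dimmer probe gave −0.03. Ccne2, cyclin E2, was well above background on the KO array only, with 0.00517 in KO and 0.00126 in WT. Since the KO signal was below the lowest WT signal taken as well above background, no fold is given. Chek1, the kinase of the replication checkpoint, was dim, with 0.0167 in KO and 0.0135 in WT (0.31), and gave −0.06 with normexp correction.

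Setting the phases against each other, the G2 and mitosis median exceeded the S phase median by 0.09 on the log2 scale. The groups overlapped: 16 of 21 G2 and mitosis genes lay above the S phase median, and 4 of 15 S phase genes (Cdc6, Chek1, Mcm4 and Rrm2) lay above the G2 and mitosis median. The gap was 0.15 when only the brightest probe of each gene was used and 0.16 when scattering rows and a damaged block of the slide were left out. That last setting kept 34 genes, because Ccna2 and Mcm3 lost all their probes, so its medians cover other genes. It was smaller than the probe spread of single genes, and with 1 array per genotype a difference between the phases could not be tested. The genes of a phase share regulators, so they are not independent readings.

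**Figure D4:**
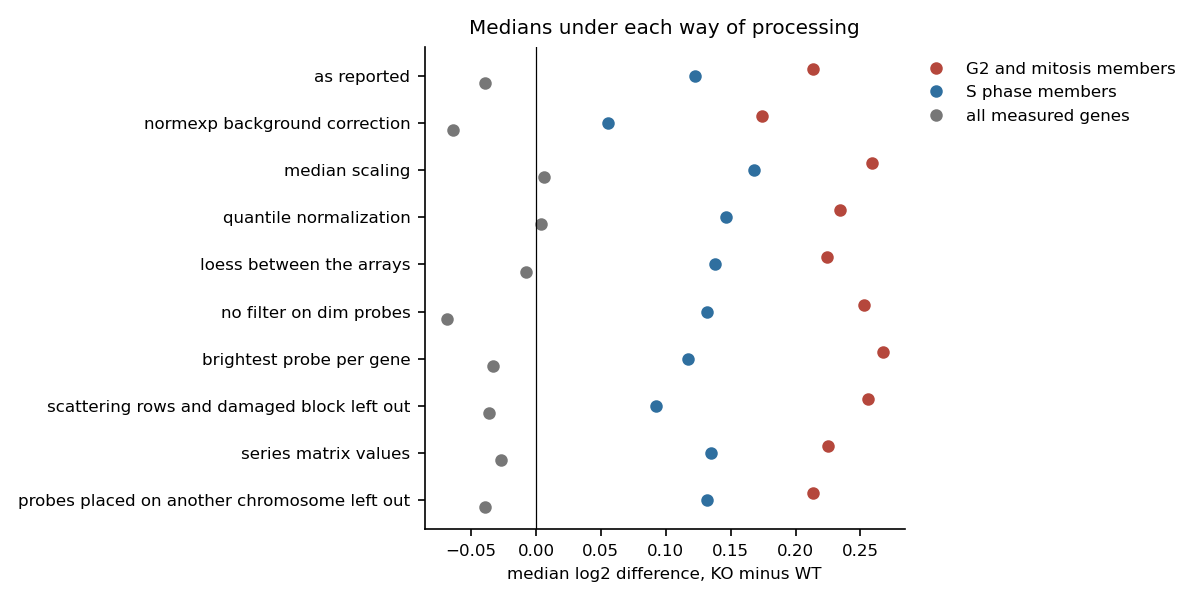
Median log2 difference (KO minus WT, horizontal axis) of the G2 and mitosis genes, the S phase genes and all measured genes under each way of processing (rows). The G2 and mitosis median lies between 0.17 and 0.27, the S phase median between 0.055 and 0.17, and the first is the higher in each row. Median scaling and the series matrix shift all genes by the same amount, so those rows could not change the order.

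Further cell cycle genes were taken from lists by function, which were chosen with earlier results of these data known. Of 46 further measured genes of G2 and mitosis, 41 were above 0, with a median of 0.23, 14 were higher by 0.32 or more and 0 lower by as much. That is 89.1% above 0 and 30.4% past 0.32, against 43.1% and 8.42% of all measured genes. The highest were the condensin subunit Ncapg, with 0.0741 in KO and 0.0439 in WT (0.75), the spindle-pole protein Aspm, with 1.48 in KO and 0.898 in WT (0.72), and Ect2, the exchange factor that triggers cytokinesis, with 1.48 in KO and 0.972 in WT (0.61). These 3 were the only ones past 1.5-fold. The Ncapg signal was low, and normexp correction lowered the differences of low-signal members such as Cenpf and Ttk. A value for Ncapg with that correction is not given here. The lowest were Cdca8 (−0.24), which encodes borealin of the chromosomal passenger complex, and Tacc3 (−0.12), a spindle protein.

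Of 35 further genes of replication and S phase, 28 were above 0, with a median of 0.09, 3 were higher by 0.32 or more and 0 lower by as much. Above 0 were thus 80% against 43.1% of all measured genes, while the share past 0.32 (8.57%) was close to that of all measured genes (8.42%). The 3 highest were Cdc7, the kinase that fires origins, with 0.0287 in KO and 0.0175 in WT (0.72), Chaf1a, a histone chaperone subunit (0.37), and Ung, the uracil glycosylase (0.35). Cdc7 was dim, as was Chek1, whose difference changed sign with normexp correction. The value of Cdc7 with that correction is not given here. The lowest were Gins3 (−0.15) and Rfc3, a clamp-loader subunit (−0.10).

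Regulators upstream of these genes were nearer to level. Of 19 G1 cyclins, kinases and transcription factors, 12 were above 0, with a median of 0.04, and 0 were higher by 0.32 or more. Of all measured genes 43.1% were above 0 and 8.42% past 0.32, so a count of 0 among 19 says little. The phosphatase gene Cdc25a (0.30), the MuvB subunit Lin54 (0.23) and E2f3 (0.21) were highest, and Mycn (−0.50; 0.967 in KO and 1.37 in WT) and the MuvB subunit Lin9 (−0.25) lowest. Of 18 kinase inhibitors, pocket proteins and arrest genes, 13 were below 0 (72.2%, against 56.9% of all measured genes), with a median of −0.08 against −0.04 for all measured genes. The share lower by 0.32 or more (11.1%) was below that of all measured genes (15.7%). It came from 2 genes, Ccng1, a p53 target, with 1.44 in KO and 2.11 in WT (−0.55), and Cdkn1b, the inhibitor p27, with 3.65 in KO and 4.57 in WT (−0.33). The highest of this list were the INK4 inhibitors Cdkn2d (0.30) and Cdkn2c (0.16), with Btg2 (0.19), an antiproliferative gene, between them.

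**Figure D5:**
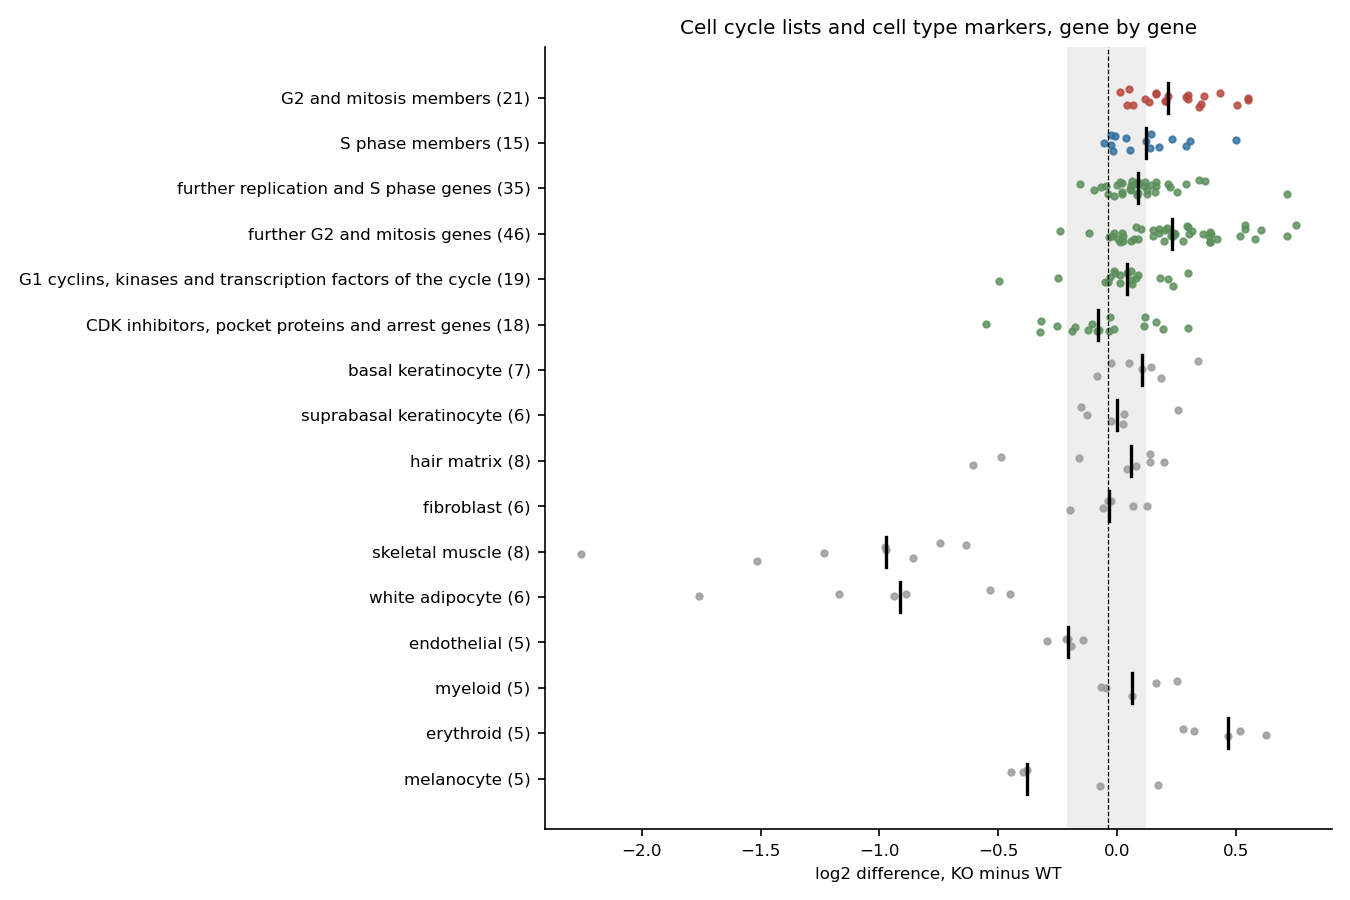
Log2 difference (KO minus WT, horizontal axis) of each measured gene in the phases, 4 further cell cycle lists and 10 lists of cell type markers, with the number of genes in brackets. Black bars are list medians, the dashed line is the median of all measured genes (−0.04) and the grey zone their middle quartiles (−0.21 to 0.12). Further G2 and mitosis genes centre at 0.23, skeletal muscle markers at −0.97 and erythroid markers at 0.47.

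Markers of several cell types differed between the arrays along with the cell cycle genes. In bulk tissue, fewer cells of a type and less RNA per cell cannot be told apart. Direction counts are to be read against all measured genes, of which 56.9% were below 0 and 43.1% above. All 8 skeletal muscle markers were lower in KO, with a median of −0.97, a range of −2.26 to −0.64 and a summed relative signal of 107 in KO and 193 in WT. All 6 white adipocyte markers were lower, with a median of −0.91, a range of −1.76 to −0.45 and sums of 14.5 in KO and 32.6 in WT. All 5 measured erythroid markers were higher, from 0.28 to 0.63, with sums of 54.7 in KO and 43.2 in WT. Endothelial markers were lower in 5 of 5, with a median of −0.21 and sums of 3.51 in KO and 4.05 in WT, and melanocyte markers in 4 of 5, with a median of −0.38 and sums of 25.7 in KO and 28.9 in WT. Each sum adds signals of different probes, so its brightest genes weigh most. A sum is therefore no measure of how much of a cell type was present.

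Markers of the compartments that hold most dividing cells did not all differ in 1 direction. The share above 0 was 71.4% for basal keratinocyte and 62.5% for hair matrix markers, against 43.1% of all measured genes. With 7 and 8 genes these shares are coarse. Basal keratinocyte markers were above 0 in 5 of 7, with a median of 0.10 and sums of 162 in KO and 143 in WT, from Trp63 at −0.09 to Krt15 at 0.34. Hair matrix markers were above 0 in 5 of 8, with a median of 0.06 and sums of 18.2 in KO and 23.0 in WT, and their lowest members were the hair keratins Krt35 (−0.60) and Krt85 (−0.49). Bright genes weighed on these sums: Krt35 alone had 8.40 in KO and 12.8 in WT, and Krt15 had 60.8 and 48.0 within the basal sums. Suprabasal keratinocyte markers had a median of 0.00 over 6 genes (sums of 403 in KO and 417 in WT), fibroblast markers −0.03 over 6 (311 and 319), and myeloid markers 0.06 over 5 (3.05 and 2.91), with the Langerhans cell marker Cd207 not measured. The part of any of these lists in the cell cycle values was not tested.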

How the data were processed

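Newborn dorsal skin RNA of Sdr9c7 KO and WT mice was hybridised to Agilent 1-colour arrays, 1 per genotype. Per the file headers, the authors' scanner files hold spot intensity after background subtraction and detrending. Agilent Feature Extraction 11.5.1.1 was used, per the submitters' processing notes. The deposited series matrix holds a ratio, the same intensity over 1 constant per array (2080 for KO, 1906 for WT), with no centring of genes and medians of 0.0840 and 0.0855. Its making is not described in the labels or headers. Control spots and 192 outlier spots were left out, log2 intensity was averaged per probe and each array's 75th percentile was subtracted. Probes were named by RefSeq accession (28325), symbol (2204), synonym (174) or the file (8714). With 1 array a genotype, precision is limited by the number of arrays.

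Alternatives were normexp (limma 3.58.1, offset 50), median, quantile and loess scaling, no filter on dim probes, the brightest probe per gene, damaged areas left out (rows whose dim spots scattered over 1.25 times the median of rows, and a block at rows 495 to 516), the series matrix, and, added after the values were seen, leaving out probes placed on another chromosome. Functions were tested on simulated data in Python 3.11.15. All members could be named, and of each further list the 3 highest and 2 lowest genes, plus genes past a stated fold. Mycn, Ccng1 and Cdkn1b were within that rule; hair keratins and Trp63 with Krt15 were named after their values were seen. The members and lists were chosen with earlier results of these data known.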

Additional observations from a re-analysis of the deposited data

How the results depend on the processing

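The medians and counts of the cell cycle lists kept their direction under the 9 alternatives, and 77 of 81 such comparisons stayed close to the reported value (for medians, within the spot SD of 0.06, and for counts, within 1.5 times). The exceptions were the following. The S phase median was 0.055 with normexp correction. The gap between G2 and mitosis and S phase was 0.15 with the brightest probe per gene and 0.16 with damaged areas left out, a setting without Ccna2 and Mcm3. With median scaling 13 members were higher by 0.32 or more, against 10.7% of all measured genes. Of the 36 measured members, 29 were above 0 in each setting that gave a value, Mcm7 was below 0 in each, and 6 had both signs. The share of all measured genes that kept their sign in each setting was not counted. All settings reuse the same arrays, so a kept sign is no replicate check. Single members stayed within the pooled SD between probes (0.23) in 317 of 319 comparisons. The others were Cdc6 with its brightest probe (0.11) and Chek1 with normexp (−0.06). The limit of 0.23 is wide: with normexp Cenpf fell from 0.29 to 0.09 and Ttk from 0.34 to 0.17, and both counted as close. Several settings could hardly differ. Median scaling and the series matrix shift all genes by the same amount, so they leave the gap between the phases unchanged. The brightest probe changes nothing for a gene with 1 probe. Scaling shifted the background too: of all genes past 0.32 in either direction, 34.8% were higher in KO as reported and 45.2% after quantile normalization, and 43.1% of all genes were above 0 as reported, against 51.2% with median scaling and 36.9% with normexp. The causes were not tested. No paired analysis was possible because each genotype had 1 array. Dim probes, such as those of Aurkb, Ccne2 and Chek1, were limited by their signal over background.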
